A study of Triticum aestivum with 6 samples.

Results

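The first 20 Mb of chromosome 3D of bread wheat (Triticum aestivum) held 492 of the 107891 genes in the deposited table, taken as every gene of that chromosome whose start lies before 20 Mb. The segment was picked because many of its genes were lower in purple than in white grain. Its members were thus chosen by the same difference between the grain types that is described here. No test of the segment as a whole is given. The calls of single genes below describe the segment and are no independent support for it. Of the 492 members, 143 reached 0.5 FPKM on average over the 6 libraries and were tested, 167 had counts below that level, and 182 had no counts in any library. FPKM is the authors' expression level, scaled for gene length and library size, so levels can be compared between genes. A description other than hypothetical, predicted, unnamed or uncharacterized protein was given for 216 members, 55 of them tested.

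RNA sequencing was done on grain of a white-grained wheat and of a purple-grained wheat, 30 days after flowering, and each grain type has 3 libraries. The labels give no cultivar, allele or treatment for either wheat, and plants of both were raised in pots in a climate chamber. Grain colour coincides with every other genetic difference between the 2 wheats, and these cannot be told apart. The tissue label is grain, whereas the extraction protocol speaks of stems and buds. Library totals ran from 78660932 to 102868886 counts. Separate plants are not named for the 3 libraries of a group, and p-values then cover only the spread between these samples, which could be technical. Storage protein genes of the starchy endosperm, a list of 116 genes of which 5 were listed at 0, held between 9.97% and 24.3% of the summed FPKM in every library, while 74 genes of green tissue, 7 of them at 0, held at most 0.0364%. This green tissue list was lower in every purple library, with 0.00544%, 0.0037% and 0.0262%, than in every white one, with 0.0333%, 0.0307% and 0.0364%, the direction of the lowered genes below, and its part in them was not tested. In bulk RNA of this kind, fewer cells of a type and less RNA per cell cannot be told apart.

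Bread wheat carries 3 related sets of chromosomes, named A, B and D, and most genes on 3D have a copy at a similar place on 3A and on 3B. The ends of wheat chromosomes are rich in genes that occur in clusters of similar members, such as disease resistance genes, receptor kinases and F-box genes, and the makeup of these clusters varies between wheats. Reads from near-identical copies can be assigned to more than one of them, so the value of a single copy is uncertain.

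White replicate 1 stood apart inside the segment. In this library the 27 tested genes of the first 5 Mb were lower than in white replicates 2 and 3 by a median of -3.30 on the log2(FPKM + 0.1) scale, against -0.17 over all 48492 tested genes. That was the lowest value of this library among 1653 windows of 5 Mb with at least 15 tested genes, and the next lowest was -1.83, for chromosome 1B from 15 Mb. The genes from 5 Mb on did not share this difference, with medians of -0.30 for the 29 tested genes from 5 to 8 Mb and 0.00 for the 87 from 8 to 20 Mb. The results of the first 5 Mb are therefore given with and without white replicate 1.

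Along the segment, the genes that edgeR called lower in purple grain with all 6 libraries lay in 1 compact block. A gene was called when edgeR's quasi-likelihood test gave a Benjamini-Hochberg adjusted p under 0.05 over all tested genes and the log2 difference, purple minus white, was at least 1 in size. By this rule 19 of the 143 tested members were lower in purple grain, where 2.32% of all tested genes were, and 5 were higher, where 2.87% of all tested genes were. All 19 lowered genes started between 5.61 and 7.61 Mb. In bins of 2 Mb, 2 of 6 tested genes were called lower from 4 to 6 Mb and 17 of 25 from 6 to 8 Mb, and none in the other bins up to 20 Mb. Without white replicate 1, edgeR called 13 of 27 tested genes lower from 0 to 5 Mb and 15 of 29 from 5 to 8 Mb. That fit called 2.28% of all tested genes lower. DESeq2, another test, called 8 and 24 lower with all libraries, where it called 6.24% of all tested genes. The start of the block at 5.61 Mb thus rested on this library and on the test.

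The segment is therefore given in 3 stretches, whose edges at 5 and 8 Mb were chosen after the values were seen. The counts called below are by edgeR with all libraries. In the first stretch, from 0 to 5 Mb, none of 27 tested genes of 143 members was called, although 24 had a negative log2 difference, the median was -1.45, and 9 were lower at an unadjusted edgeR p under 0.05. In the second, from 5 to 8 Mb, 19 of 29 tested genes of 97 members were called lower, none was called higher and the median was -2.23. In the third, from 8 to 20 Mb, none of 87 tested genes of 252 members was called lower, 5 were called higher and the median was 0.11, and 6 lower and 13 higher genes had an unadjusted edgeR p under 0.05. Over all tested genes 12.6% were lower and 14.2% higher at that unadjusted threshold. Over all 143 tested members the median was -0.29, against 0.02 over all tested genes. Genes whose 3 purple FPKM values all lay below the 3 white ones numbered 3, 26 and 9 in the 3 stretches, 38 in all, where 19.9% of all tested genes had this order.

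**Figure D1:**
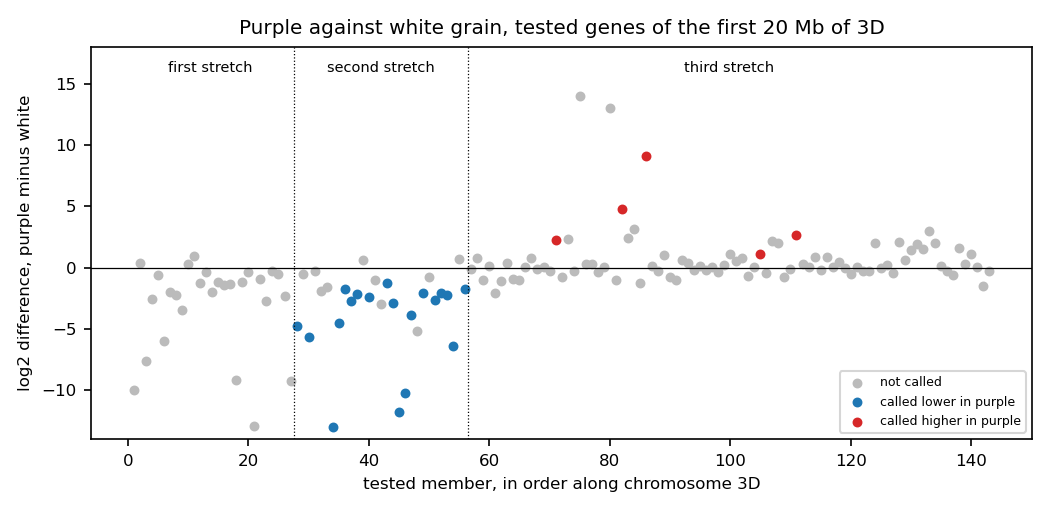
Log2 difference between purple and white grain (y axis) for the 143 tested genes of the first 20 Mb of 3D in chromosome order (x axis), 1 point a gene, with dotted lines between the 3 stretches. The 19 genes called lower lie in the second stretch and the 5 called higher in the third. Points of genes with no counts in 1 grain type have fitted values that do not measure the size of their difference.

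The block ended far before the 20 Mb limit. The last 3 lowered genes of the segment, described as pg1 (TraesCS3D02G023700), a hypothetical protein (TraesCS3D02G023800) and a conserved hypothetical protein (TraesCS3D02G024100), started at 7.53, 7.55 and 7.61 Mb. The next gene called lower on 3D, TraesCS3D02G087200, started at 44.0 Mb, followed by a cytokinin oxidase gene (TraesCS3D02G143500), of the enzyme family that degrades cytokinin, at 106.74 Mb and TraesCS3D02G167400 at 141.66 Mb. From 8 to 10 Mb, edgeR called 0 of 9 tested genes lower, while 6 had a negative log2 difference and the median was -0.97. Of these 9 genes, 4 had all purple values below all white ones, where 19.9% of all tested genes had, and DESeq2 called 2 lower, where it called 6.24% of all tested genes. An unadjusted edgeR p under 0.05 in that direction was found for 3, where 12.6% of all tested genes had one. Among them TraesCS3D02G028400, chosen after its values were seen, had 11.2, 11.98 and 10.9 FPKM in white grain, against 4.27, 4.68 and 6.82 FPKM in purple grain. In that gene, beyond the edge at 8 Mb, every purple library was below every white one. From 20 to 40 Mb, edgeR called 0 of 97 tested genes lower and 3 higher, where 2.32% and 2.87% of all tested genes were. DESeq2 called 5 lower and 5 higher there, where it called 6.24% and 9.46% of all tested genes. Unadjusted edgeR p-values under 0.05 numbered 14 for lower and 9 for higher genes, where 12.6% and 14.2% of all tested genes had one. From 20 Mb to the far end of the chromosome, edgeR called 24 of 2401 lower (1.00%) and 74 higher (3.08%). Just inside the limit, the reticulon-like gene TraesCS3D02G050800 had 1.34, 1.10 and 0.473 FPKM in white grain, against 0.369, 0.129 and 0.477 FPKM in purple grain. Just outside it, TraesCS3D02G051000 had 3.53, 3.75 and 2.20 FPKM in white grain, against 5.32, 6.14 and 3.09 FPKM in purple grain. Neither of these was called, and the white and purple values overlapped in both. Windows of 20 Mb with at least 50 tested genes numbered 518 in the whole genome. By share of lowered genes the segment had rank 4 among them, with 13.3%. Higher shares were found on chromosome 1B from 140 Mb with 76.8%, 1B from 0 Mb with 66.7% and 2A from 0 Mb with 30.1%. Next after the segment came 3B from 0 Mb, with 12 of 103 tested genes lowered (11.65%), a share close to that of the segment. The segment was picked for its lowered genes, so a high rank follows from that choice and is no independent support.

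Among the 19 lowered genes of the second stretch, functions are given for those named by rule. These had an informative description, a white mean of at least 2 FPKM and no overlap between the groups. By description their functions were mixed, in calcium binding, protein turnover, peroxisome import, ion transport, sugar transfer and translation. Other lowered genes, some of them described as hypothetical proteins, are not covered. The log2 differences of all 19 ran from -1.23 to -6.41 where purple grain had counts, and 3 of the 19 had none. The most expressed was TraesCS3D02G021200 (3D, 7028152 to 7028934), described as a histidine-rich calcium-binding protein of the sarcoplasmic reticulum, a description transferred from animal proteins. It had 54.1, 51.1 and 65.0 FPKM in the white libraries, against 4.15, 4.24 and 2.21 FPKM in the purple ones. The 3 white values lay close together and the lowest of them was far above the highest purple value, with a log2 difference of -3.91 ± 0.34 (SE).

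Both lowered genes of protein turnover by ubiquitin stood far below white grain in every purple library. A SINA-like 10 gene (TraesCS3D02G018000, 6060901 to 6068841), of a family of E3 ligases that attach ubiquitin to target proteins, had 3.37, 3.22 and 6.06 FPKM in white grain and no counts in any purple library. With 3 counts per purple library as the limit a count of 0 allows, purple grain was at least 366-fold lower, a bound for counting error only. The F-box gene TraesCS3D02G020400 (6860952 to 6863358), whose protein family picks the targets of SCF ubiquitin ligases, had 8.12, 8.42 and 6.72 FPKM in white grain. In purple grain it had 0.883, 1.11 and 0.885 FPKM, a log2 difference of -2.90 ± 0.23 (SE). For both genes the groups were well apart.

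A cystatin gene (TraesCS3D02G020500, 6949696 to 6950286), of inhibitors that block cysteine proteases, had 11.7, 3.21 and 8.35 FPKM in white grain and none in purple grain, at least 152.0-fold lower. White replicate 2 was the lowest of the white libraries for this gene and still above every purple one. The cystatin call ended when white replicate 3 or purple replicate 2 was left out. The remaining lowered gene without purple counts, TraesCS3D02G020700, described as a conserved hypothetical protein, had 1.02, 0.912 and 1.35 FPKM in white grain and none in purple grain, at least 53.9-fold lower. It was chosen after its values were seen.

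PEX14 is a membrane protein of the peroxisome at which imported proteins dock. Its gene TraesCS3D02G018800 (6339983 to 6345137) had 4.92, 4.33 and 3.00 FPKM in white grain, against 0.734, 0.735 and 0.299 FPKM in purple grain, which is a log2 difference of -2.69 ± 0.44 (SE). Replicate 3 was the lowest library of both grain types, and the groups did not overlap. Leaving out white replicate 2 or 3 or purple replicate 1 or 2 ended the call.

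A gene described as HGA-like glycosyltransferase, TraesCS3D02G023200 (7405848 to 7412003), of enzymes that move sugars onto acceptor molecules, had 3.36, 6.37 and 4.03 FPKM in white grain. It had 0.604, 0.744 and 0.618 FPKM in purple grain, which is a log2 difference of -2.66 ± 0.27 (SE). A plasma membrane Na+/H+ antiporter gene (TraesCS3D02G022900, 7256680 to 7268617), of a family that exports sodium in exchange for protons, had 2.41, 5.60 and 3.81 FPKM in white grain, against 0.791, 0.928 and 0.776 FPKM in purple grain. In both genes the purple values were tight and white replicate 2 was the highest. The antiporter's log2 difference was -2.09 ± 0.28 (SE), and the same omissions ended its call.

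The smallest change among the lowered genes was in eIF3 subunit A (TraesCS3D02G020200, 6745804 to 6753986), a scaffold of the complex that brings ribosomes to messenger RNA. It had 13.3, 15.8 and 17.0 FPKM in white grain, against 4.77, 7.57 and 5.77 FPKM in purple grain, which is a log2 difference of -1.23 ± 0.25 (SE). The groups did not overlap, yet the call was lost when any 1 of the 6 libraries was left out. Its neighbour TraesCS3D02G020000, a methyltransferase domain gene, had a difference of -1.01 ± 0.22 (SE) and was not called, with 13.5, 20.0 and 17.4 FPKM in white grain, against 6.36, 7.47 and 9.33 FPKM in purple grain.

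**Figure D2:**
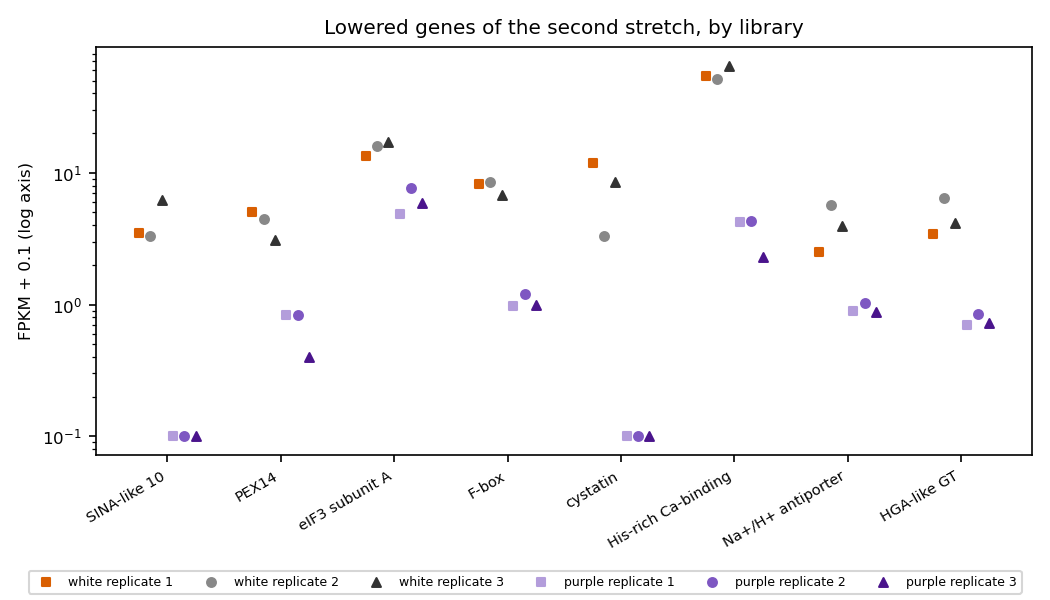
FPKM + 0.1 on a log axis (y) for the 8 lowered genes with an informative description, a white mean of at least 2 FPKM and no overlap between the groups (x), with 1 symbol a library. All purple symbols lie below all white ones in each gene, and SINA-like 10 and cystatin sit at 0 FPKM in purple grain.

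The block was not uniform. Of the 29 tested genes of the second stretch, 2 had a positive log2 difference, and both lie among lowered neighbours. The ABC transporter gene TraesCS3D02G019000 had a log2 difference of 0.65 ± 0.50 (SE). The glutamate decarboxylase gene TraesCS3D02G023900, for the enzyme that makes GABA from glutamate, had 8.79, 11.8 and 5.31 FPKM in white grain, against 14.2, 16.3 and 7.75 FPKM in purple grain. It lies between the last lowered genes of the block, and its groups overlapped. An alanyl-tRNA synthetase gene, TraesCS3D02G022200, missed the call with 0.999, 1.42 and 0.756 FPKM in white grain, against 0.0757, 0 and 0 FPKM in purple grain. These 3 genes were chosen after their values were seen. The number called in the second stretch depended on the libraries. It was 8 when white replicate 2 was left out, where 0.804% of all tested genes were called lower, 8 when white replicate 3 was, where 0.835% were, and 8 when purple replicate 2 was, where 0.724% were. It was 12 when purple replicate 1 was left out, where 1.16% of all tested genes were called lower. DESeq2, a test with another model of the spread, called 8 genes lower in the first stretch, 24 in the second and 2 in the third, where it called 6.24% of all tested genes lower, and 12 higher in the third, where it called 9.46% higher.

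In the first stretch, white replicates 2 and 3 were above every purple library in 24 of the 27 tested genes, whereas white replicate 1 was at or below the highest purple library in 24 of them. White replicate 1 was below both other white libraries in 25 of 27 genes, where 47.2% of all tested genes had that order, and more than 4 times below both in 21, where 2.32% of all tested genes were. From 5 to 8 Mb and from 8 to 20 Mb no tested gene was more than 4 times below both. Summed over the 143 members of the first stretch, the counts were 6505, 64129 and 50858 in white grain, against 32008, 30738 and 15183 in purple grain. Members with at least 10 counts numbered 25, 49 and 47 in the white libraries, against 31, 32 and 30 in the purple ones.

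**Figure D3:**
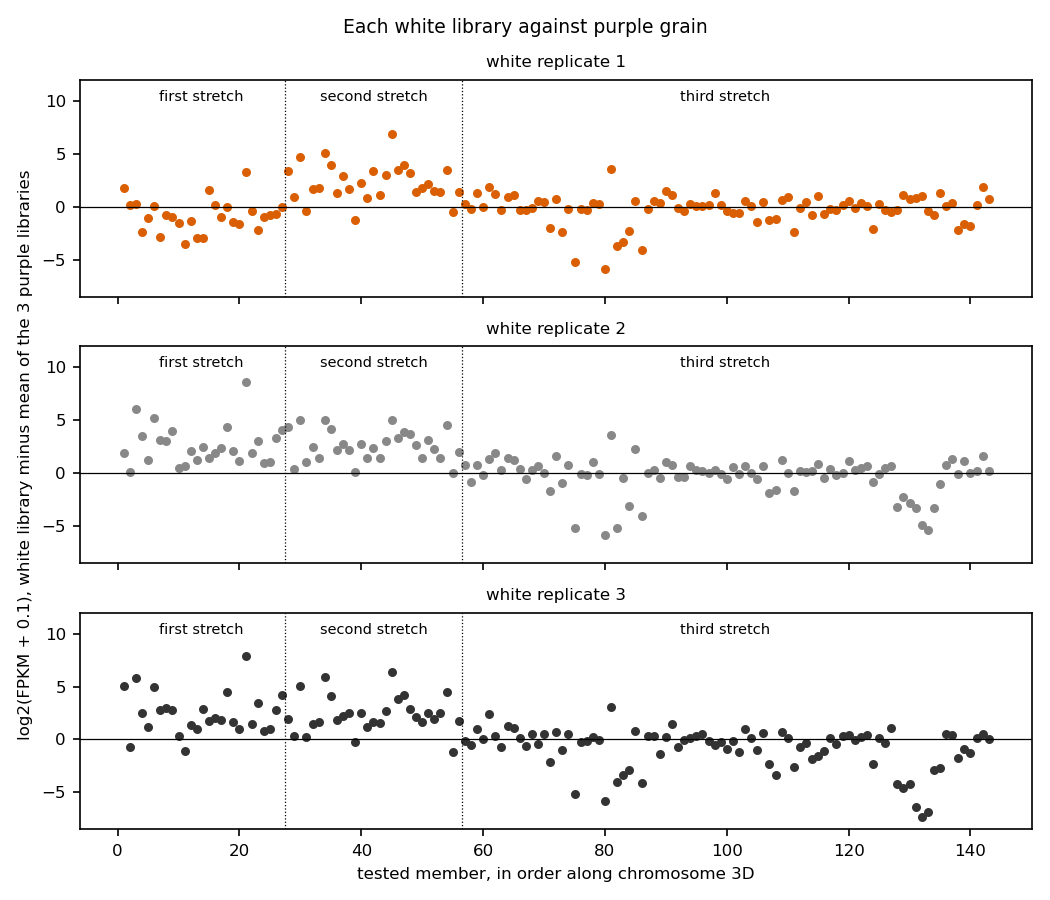
Difference on the log2(FPKM + 0.1) scale between each white library and the mean of the 3 purple libraries (y axis, 1 panel a library) for the 143 tested genes in chromosome order (x axis). In the first stretch the median is -0.95 in white replicate 1 against 2.06 and 2.05 in replicates 2 and 3, while in the second stretch the medians are 1.81, 2.45 and 2.07.

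Sucrose-phosphate synthase, which makes the precursor of sucrose, shows the pattern of the first stretch at a high level. Its gene TraesCS3D02G013000 (4486023 to 4494474) had 2.45, 40.4 and 28.6 FPKM in white grain, against 4.24, 5.92 and 2.68 FPKM in purple grain. A gene for 60S ribosomal protein L9, part of the large ribosomal subunit (TraesCS3D02G003200, 1337527 to 1339579), had 3.66, 51.2 and 51.7 FPKM in white grain, against 4.92, 9.96 and 5.17 FPKM in purple grain. The dephospho-CoA kinase gene TraesCS3D02G001500 (770364 to 773698), for the last step of coenzyme A synthesis, had 0.0407, 7.89 and 6.61 FPKM in white grain, against 0.0586, 0 and 0 FPKM in purple grain. In these 3 genes white replicate 1 was below the highest purple library and white replicates 2 and 3 lay far above all purple ones. All but the dephospho-CoA kinase gene were chosen after their values were seen. A serine/threonine kinase gene, TraesCS3D02G005400 (2141059 to 2143491), had 2.47, 8.40 and 9.29 FPKM in white grain, against 2.02, 1.71 and 2.93 FPKM in purple grain, with white replicate 1 inside the purple range.

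Some genes of the first stretch had no counts in purple grain at all. TraesCS3D02G008300, described as a hypothetical protein, had 0.853, 39.1 and 23.1 FPKM in white grain and none in purple grain, at least 379.9-fold lower, and was chosen after its values were seen. A trypsin inhibitor 1-like gene, TraesCS3D02G006600, had 0, 2.01 and 2.20 FPKM in white grain and no counts in purple grain. Over the segment, 7 tested genes had no counts in all 3 purple libraries, 4 of them in the first stretch and 3 in the second, where 0.685% of all tested genes had none. The 4 genes of the first stretch were at most 0.853 FPKM in white replicate 1.

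White replicate 1 was below every purple library in 17 of the 27 tested genes of the stretch, and 2 more of these genes follow. A further 60S ribosomal protein L9 gene, TraesCS3D02G003800, the most expressed of the translation genes, had 10.4, 41.6 and 38.4 FPKM in white grain, against 26.5, 47.4 and 23.0 FPKM in purple grain. The Paf1 domain gene TraesCS3D02G002000, of a complex that travels with RNA polymerase II, had 0.936, 4.87 and 4.63 FPKM in white grain, against 1.89, 2.68 and 1.68 FPKM in purple grain. Only 2 tested genes of the stretch were not below both other libraries in white replicate 1. The hydroquinone glucosyltransferase gene TraesCS3D02G001400 had 1.70, 1.59 and 0.880 FPKM in white grain, against 2.64, 0.790 and 1.52 FPKM in purple grain. A pectinesterase inhibitor gene, TraesCS3D02G004900, had 10.1, 8.96 and 11.3 FPKM in white grain, against 2.09, 2.15 and 8.52 FPKM in purple grain.

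MFT, a regulator that holds back germination in wheat grain, had its 3D gene (TraesCS3D02G004100, 1733084 to 1736612) in the same stretch, and it was chosen after its values were seen. It had 7.07, 130.8 and 37.9 FPKM in white grain, against 146.2, 112.4 and 34.0 FPKM in purple grain. White replicate 1 was the lowest library, and the other white libraries overlapped with the purple ones. A 3B copy described as MFT-3B-1, TraesCS3B02G010100, had 12.3, 16.8 and 3.47 FPKM in white grain, against 149, 98.1 and 36.7 FPKM in purple grain (log2 difference 3.25 ± 0.71 SE, edgeR adjusted p = 0.0519). The copy described as MFT-3B-2, TraesCS3B02G007400, had 18.7, 65.4 and 13.6 FPKM in white grain, against 20.3, 13.5 and 4.90 FPKM in the purple libraries (edgeR adjusted p = 0.313). MFT acts in the embryo, and markers of embryo and aleurone differed between the grain types in the same direction as MFT-3B-1. The list of 30 such genes, 2 of them at 0, held 0.222%, 0.316% and 0.0983% of the summed FPKM in white grain, against 1.56%, 2.02% and 0.466% in purple grain, and its part in these values was not tested.

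When white replicate 1 was left out, 13 of the 27 tested genes of the first stretch were called lower in purple grain, where 2.28% of all tested genes were, and the median log2 difference was -1.87. The 13 included the genes for dephospho-CoA kinase, the 60S ribosomal protein L9 gene TraesCS3D02G003200, sucrose-phosphate synthase, the serine/threonine kinase, the trypsin inhibitor and 1 pectinesterase inhibitor. The other 7 had no informative description. In that fit the log2 difference was -2.81 ± 0.40 (SE) for sucrose-phosphate synthase and -2.75 ± 0.39 (SE) for the ribosomal protein gene. Purple replicate 3, whose correlation with the other purple libraries was 0.885 and 0.891 against 0.945 between those, also bore on the counts. Without both libraries, 15 genes of the first and 16 of the second stretch were called lower, where 6.06% of all tested genes were. Without purple replicate 3 alone the numbers were 1 and 16, where 4.97% of all tested genes were.

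By edgeR with all libraries, the third stretch held no lowered gene and 5 genes called higher in purple grain. These were TraesCS3D02G031100, TraesCS3D02G034000, TraesCS3D02G035800, TraesCS3D02G039000 and TraesCS3D02G041300. None of them has an informative description, so none was named by the rule for raised genes. The most expressed, TraesCS3D02G039000, had 11.6, 20.0 and 15.1 FPKM in white grain, against 27.9, 36.0 and 28.6 FPKM in purple grain, which is a log2 difference of 1.12 ± 0.23 (SE). TraesCS3D02G034000 had 1.02, 0.305 and 0.781 FPKM in white grain, against 14.9, 36.5 and 5.87 FPKM in purple grain. In both genes every purple library was above every white one. No gene of the stretch was called higher when white replicate 2 was left out, where 0.794% of all tested genes were, or when white replicate 3 was, where 0.829% were. The number was 1 without purple replicate 2 (0.472% of all tested genes), 3 without purple replicate 1 (1.41%), 4 without white replicate 1 (3.28%) and 7 without purple replicate 3 (5.28%). It was 13 without both white replicate 1 and purple replicate 3 (7.88%).

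Bowman-Birk inhibitors are small seed proteins that block trypsin-like proteases. The segment has 7 such genes, from 12.42 to 15.1 Mb, of which 2 were tested. TraesCS3D02G034200 (12462717 to 12463585) had the highest mean level of all members, with 74.7, 41.8 and 48.6 FPKM in white grain, against 660.3, 603 and 115 FPKM in purple grain. Every purple library was above every white one, and purple replicate 3 lay far below the other purple libraries. The log2 difference was 3.12 ± 0.71 (SE) and was not called, while without purple replicate 3 it was. The embryo and aleurone list was also higher in every purple library than in every white one and lowest in replicate 3 among the purple ones, and its part was not tested. A neighbour, TraesCS3D02G033900, had 8.19, 8.32 and 5.65 FPKM in white grain, against 0.242, 0 and 9.67 FPKM in purple grain.

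A cluster of small heat shock protein genes lay near the end of the segment. These proteins, of the HSP20 family, bind proteins that have begun to unfold. By KEGG number (K13993) the segment has 9, of which 8 were tested, between 17.39 and 17.6 Mb, and the table describes them as hypothetical or predicted proteins. The gene with the highest mean of them, TraesCS3D02G046600, had 73.1, 2.29 and 0.730 FPKM in white grain, against 294, 313 and 9.98 FPKM in purple grain. TraesCS3D02G045700 had 142, 11.5 and 4.35 FPKM in white grain, against 228, 192 and 14.1 FPKM in purple grain. TraesCS3D02G045500 had 102, 13.2 and 6.53 FPKM in white grain, against 259, 208 and 37.7 FPKM in purple grain. The high libraries were white replicate 1, purple replicate 1 and purple replicate 2, so 1 white library was high and 1 purple library was low.

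TraesCS3D02G046700 had 96.4, 16.3 and 22.1 FPKM in white grain, against 230, 181 and 111 FPKM in purple grain, and it was the only one of the 8 whose groups did not overlap. EdgeR called none of the 8, where it called 2.32% of all tested genes lower and 2.87% higher. DESeq2 called 1 higher, where it called 9.46% of all tested genes higher. An unadjusted edgeR p under 0.05 was found for 1, also higher, where 14.2% of all tested genes were higher at that threshold. Summed over the 9 genes, FPKM was 829, 79.5 and 42.4 in white grain, against 1514, 1363 and 255 in purple grain. The 145 HSP20 genes elsewhere in the genome gave 7194, 3228 and 1114 in white grain, against 12440, 12072 and 2021 in purple grain, the same 3 libraries being highest. The 9 genes held 51.2%, 5.65% and 3.97% of the members' summed FPKM in white grain, against 49.4%, 49.3% and 24.4% in purple grain. They therefore bear on any sum over the segment. All members together summed to 1619, 1406 and 1069 FPKM in white grain, against 3063, 2763 and 1041 FPKM in purple grain. Without the HSP20 genes the sums were 790.0, 1327 and 1027 FPKM in white grain, against 1549, 1400 and 787 FPKM in purple grain. Without the leading Bowman-Birk gene as well they were 715, 1285 and 978 FPKM in white grain, against 889, 798 and 672 FPKM in purple grain, so that the higher purple mean rested on these genes.

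**Figure D4:**
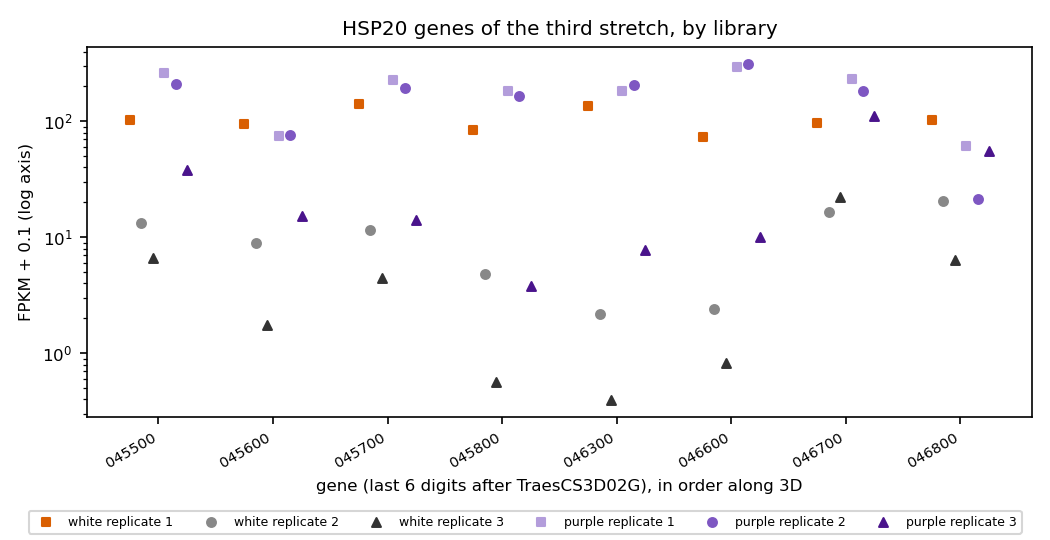
FPKM + 0.1 on a log axis (y) for the 8 tested HSP20 genes in chromosome order (x), with 1 symbol a library. White replicate 1 and purple replicates 1 and 2 lie high in most of the genes, and white replicates 2 and 3 lie low.

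Among other genes of the third stretch, a class III peroxidase gene described as Peroxidase 12 (TraesCS3D02G031800) had no counts in white grain or in purple replicate 1, and 16.1 and 30.1 FPKM in purple replicates 2 and 3. It was 1 of 3 tested members without counts in all white libraries, where 0.734% of all tested genes had none. These were TraesCS3D02G031800, TraesCS3D02G033400 and TraesCS3D02G035800, chosen after their values were seen. The metal tolerance protein C3 gene TraesCS3D02G038000, of a family of cation carriers, had 18.7, 15.4 and 13.5 FPKM in white grain, against 23.4, 9.37 and 19.1 FPKM in purple grain. The plastidic glucose transporter gene TraesCS3D02G043500, which in other plants carries glucose out of plastids, had 15.1, 15.7 and 13.2 FPKM in white grain, against 12.4, 10.6 and 11.5 FPKM in purple grain. The groups overlapped in the first of these genes and not in the second, and neither was called.

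By function, the genes described as NLR, protein kinase, transcription factor or protease genes were mostly below the level tested. Of 12 NLR disease resistance genes, which sense pathogens, 1 was tested, TraesCS3D02G041100, described as RGA2, with 1.05, 0.503 and 0.570 FPKM in white grain, against 1.06, 0.666 and 0.147 FPKM in purple grain. Of 39 protein kinase genes, 1 was tested, the serine/threonine kinase gene given above. None of 13 transcription factor genes and none of 5 protease genes reached the level tested. EdgeR called no NLR or kinase gene with all libraries, while DESeq2 called the kinase gene lower.

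The lists with lowered members each had few tested genes, and their counts by edgeR stand beside 2.32% of all tested genes called lower and 2.87% called higher. Of 21 F-box and ubiquitin ligase genes 7 were tested and 2 were lower, the SINA-like 10 and F-box genes. The most expressed of this list, the ubiquitin carrier protein E2 23 gene TraesCS3D02G032000, had 7.91, 8.61 and 9.14 FPKM in white grain, against 9.20, 10.7 and 9.82 FPKM in purple grain and was not called. Of 12 transferases of small molecules 5 were tested and 1 was lower, of 8 genes of ribosome and translation 6 were tested and 1 was lower, and of 5 transporters 4 were tested and 1 was lower. EdgeR called none among 11 storage and defence protein genes with 5 tested, 3 cytochrome P450 genes with 1 tested, or 5 plastid genes with 2 tested, while DESeq2 called 1 storage and defence gene lower and 1 higher, the latter the Bowman-Birk gene TraesCS3D02G034200. The tested cytochrome P450 gene, TraesCS3D02G024700, had 0.648, 0.407 and 0.521 FPKM in white grain, against 1.13, 1.08 and 0.385 FPKM in purple grain. Over these lists edgeR called 5 members lower and 0 higher, and DESeq2 called 10 lower and 1 higher, where it called 6.24% and 9.46% of all tested genes.

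Families of similar genes lie on both sides of the edge at 8 Mb. Each of the 2 given here had 1 lowered member, where edgeR called 2.32% of all tested genes lower. The SINA-like family has 13 members from 5.6 to 11.45 Mb, 5 of them tested, and the lowered SINA-like 10 gene lies at 6.06 Mb. The HGA-like glycosyltransferases have 6 members from 7.23 to 8.44 Mb, 3 of them tested, and the lowered one lies at 7.41 Mb. Its neighbour at 7287231, TraesCS3D02G023000, had 5.14, 3.94 and 4.55 FPKM in white grain, against 3.73, 3.57 and 0.158 FPKM in purple grain. The member beyond the edge, TraesCS3D02G024500, had 10.9, 16.0 and 8.13 FPKM in white grain, against 16.1, 6.63 and 7.54 FPKM in purple grain. Neither of these was called, and both were chosen after their values were seen. In TraesCS3D02G023000 every purple library was below every white one, where 19.9% of all tested genes had this order. In TraesCS3D02G024500 the groups overlapped.

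Among the 167 members with counts below the level tested, 34 had counts in white libraries only and 48 in purple libraries only. In the first stretch the numbers were 19 and 8 of 45, in the second 8 and 7 of 33, and in the third 7 and 33 of 89. Over the whole table they were 4589 and 6720 of 31646.

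The 3A and 3B copies of the members were compared in the same fit. A copy was taken as a gene in the first 30 Mb of 3A or 3B with the same informative description as a member, where that description occurs once in each window, since no table of copies was used. This gave 47 copies on 3A, 21 of them tested, and 32 on 3B, 14 of them tested. Of these 35, edgeR called 0 lower and 1 higher in purple grain, where 2.32% and 2.87% of all tested genes were. DESeq2 called 2 lower and 3 higher, where it called 6.24% and 9.46% of all tested genes. Unadjusted edgeR p-values under 0.05 numbered 4 (11.4%) for lower and 7 (20.0%) for higher copies, where 12.6% and 14.2% of all tested genes had one. The count called lower is near the share over all tested genes and says nothing particular of the copies. When any unique description was accepted, 1 copy was called lower, TraesCS3B02G021400, with 9.30, 15.8 and 12.2 FPKM in white grain and no counts in purple grain, and an edgeR adjusted p of 0.0036. It was chosen after its values were seen, and its 3D member, below the level tested, had counts in purple grain only. The median log2 difference of the copies was 0.57 on 3A and -0.28 on 3B. In the 9 pairs of the second stretch with both genes tested, the median was -2.69 for the members and 0.68 for the copies. Of these pairs 5 were with a 3A and 4 with a 3B copy, and a member with both copies entered with each, so the pairs are not independent.

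PEX14 has a copy on both chromosomes. The 3A copy TraesCS3A02G026700 had 4.01, 4.66 and 3.87 FPKM in white grain, against 5.73, 4.61 and 3.00 FPKM in purple grain (log2 difference 0.19 ± 0.26 SE, edgeR adjusted p = 0.671). The 3B copy TraesCS3B02G017300 had 5.41, 5.18 and 3.80 FPKM in white grain, against 5.94, 5.24 and 3.92 FPKM in purple grain (log2 difference 0.17 ± 0.25 SE, edgeR adjusted p = 0.699). In white grain the 3D gene lay near the level of these copies, and in purple grain it was below both in every library.

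For the histidine-rich calcium-binding protein, the 3A copy TraesCS3A02G024900 had 45.4, 21.4 and 26.4 FPKM in white grain, against 50.8, 63.4 and 29.2 FPKM in purple grain (log2 difference 0.68 ± 0.44 SE, edgeR adjusted p = 0.360). The 3B copy TraesCS3B02G019900 had 7.75, 15.7 and 15.4 FPKM in white grain, against 24.4, 32.6 and 15.2 FPKM in purple grain (log2 difference 1.02 ± 0.36 SE, edgeR adjusted p = 0.134). The white and purple values overlapped for both copies. For the methyltransferase gene, the log2 difference was 0.27 ± 0.18 (SE) for the 3A copy TraesCS3A02G025700 and -0.75 ± 0.48 (SE) for the 3B copy TraesCS3B02G019300 (edgeR adjusted p = 0.370 and 0.357).

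The copy called higher belongs to the ABC transporter gene that was not lowered in the block. The 3B copy TraesCS3B02G017100 had 0.346, 0.590 and 0.444 FPKM in white grain, against 1.06, 2.12 and 1.46 FPKM in purple grain (log2 difference 1.88 ± 0.37 SE, edgeR adjusted p = 0.0403). Its 3A copy TraesCS3A02G026500 had 0.942, 2.10 and 1.36 FPKM in white grain, against 2.60, 3.73 and 3.09 FPKM in purple grain (log2 difference 1.24 ± 0.30 SE, edgeR adjusted p = 0.0665). No copy was called higher without white replicate 2 (0.794% of all tested genes), white replicate 3 (0.829%) or purple replicate 2 (0.472%). Without white replicate 1, 5 copies were called higher, where 3.28% of all tested genes were.

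In the first stretch the copies did not share the low values of white replicate 1 in a uniform way. The dephospho-CoA kinase copy on 3A, TraesCS3A02G010100, had 6.11, 5.42 and 4.61 FPKM in white grain, against 6.91, 6.30 and 5.33 FPKM in the purple libraries (edgeR adjusted p = 0.474). The copy on 3B, TraesCS3B02G013200, had 3.48, 3.84 and 2.65 FPKM in white grain, against 3.00, 2.25 and 2.02 FPKM in the purple libraries (edgeR adjusted p = 0.462). Neither copy was low in white replicate 1. The sucrose-phosphate synthase copy on 3A, TraesCS3A02G015500, had 12.6, 30.0 and 20.0 FPKM in white grain, against 27.0, 45.3 and 28.9 FPKM in the purple libraries (edgeR adjusted p = 0.184). The 3B copy of the Paf1 gene, TraesCS3B02G012200, had 4.31, 0.950 and 0.986 FPKM in white grain, against 0.975, 1.48 and 1.21 FPKM in the purple libraries (edgeR adjusted p = 0.530). White replicate 1 was thus the lowest white library for the first of these copies and the highest for the second. Over the pairs of this stretch with both genes tested, white replicate 1 stood at a median of -2.23 against the other white libraries for the members, -0.95 for the 5 copies on 3A and 1.42 for the 5 on 3B, on the log2(FPKM + 0.1) scale. A member with both copies entered with each.

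The trypsin inhibitor and EXECUTER 2 genes of the first stretch had 3B copies with low purple values of their own. The 3B copy of the trypsin inhibitor gene, TraesCS3B02G009700, had 2.47, 0.539 and 0.690 FPKM in white grain and none in any purple library (edgeR adjusted p = 0.0565). EXECUTER 2 is a chloroplast protein that in Arabidopsis takes part in signalling by singlet oxygen. Its 3B copy TraesCS3B02G000200 had 26.5, 14.97 and 15.3 FPKM in white grain, against 7.78, 5.76 and 6.34 FPKM in purple grain (log2 difference -1.44 ± 0.34 SE, edgeR adjusted p = 0.0597). Both copies were chosen after their values were seen, and the groups did not overlap in either. The first 30 Mb of 3B as a whole held 13 lowered (9.03%) and 9 raised (6.25%) genes of 144 tested. That of 3A held 2 lowered (1.40%) and 10 raised (6.99%) of 143. Over all tested genes 2.32% were lowered and 2.87% raised.

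**Figure D5:**
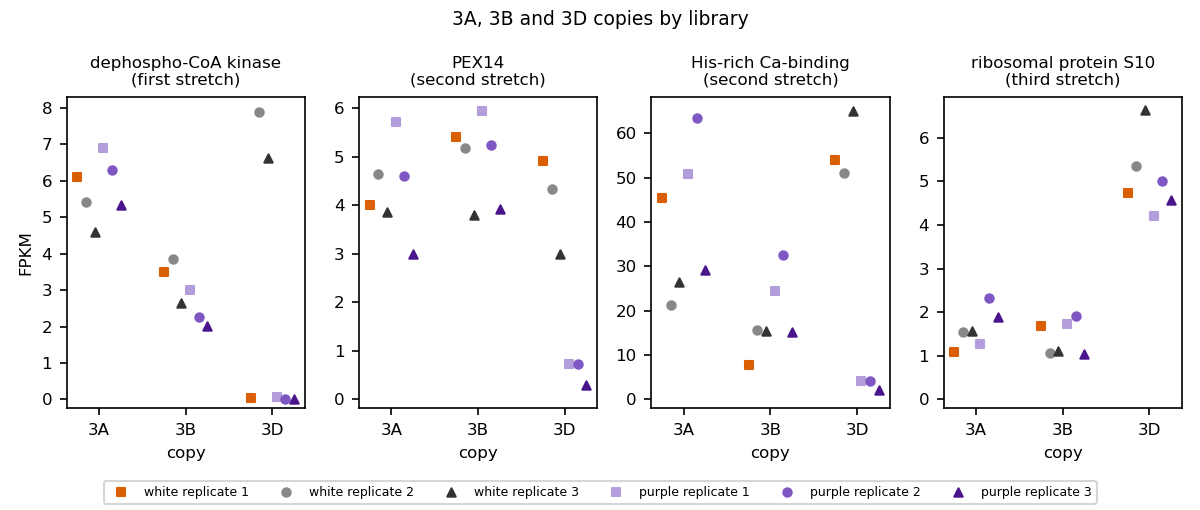
FPKM (y axis, from 0) of the 3A, 3B and 3D copies (x axis) of 4 genes in the 6 libraries. The 3D copy of PEX14 and of the histidine-rich protein is low in the 3 purple libraries, that of dephospho-CoA kinase is low in these and in white replicate 1, and that of mitochondrial ribosomal protein S10 is the highest copy in every library.

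The share of the 3D copy in the summed FPKM of the 3 copies puts these values on 1 scale. Both copies were found for 20 members, and 13 of these sets had a summed mean of at least 1 FPKM. The median 3D share was 26.0%, 46.0% and 45.8% in the white libraries, against 13.6%, 7.78% and 5.90% in the purple ones. In the 5 sets of the second stretch the medians were 34.3%, 45.1% and 43.8% in white grain, against 5.92%, 6.94% and 4.73% in purple grain. In the 5 of the first stretch they were 0.423%, 46.0% and 47.7% in white grain, against 21.5%, 4.84% and 5.90% in purple grain. In the 3 of the third stretch they were 8.67%, 67.1% and 38.9% in white grain, against 27.1%, 27.1% and 51.8% in purple grain, and the groups overlapped. In the first stretch 1 set had no counts in purple replicate 1, and 1 set of the third stretch had none in white replicate 3, and these were left out of the medians of those libraries. White replicate 1 had the lowest share of all libraries in the first stretch, and in the second it was above all purple libraries.

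The single sets show how the shares spread. For PEX14 the 3D share was 34.3%, 30.6% and 28.1% in white grain, against 5.92%, 6.94% and 4.15% in purple grain. For the histidine-rich protein it was 50.4%, 57.9% and 60.8% in white grain, against 5.22%, 4.23% and 4.73% in purple grain. For the Paf1 gene it was 14.9%, 55.1% and 57.6% in white grain, against 50.9%, 51.8% and 43.1% in purple grain. The first 2 sets were low in all purple libraries, and the Paf1 set was low in white replicate 1 alone. The HT1 kinase set, whose 3D gene TraesCS3D02G010000 was below the level tested, had a 3D share of 0%, 14.6% and 14.1% in white grain, against 9.58%, 4.84% and 5.90% in purple grain. For mitochondrial ribosomal protein S10 (TraesCS3D02G037600), in the third stretch, it was 63.0%, 67.1% and 71.3% in white grain, against 58.4%, 54.2% and 60.9% in purple grain. Here the purple libraries were below the white ones too, by far less.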

How the data were processed

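According to its column headers, the deposited table gives whole-number counts for each gene and library, and FPKM values that the authors scaled for length and depth. The authors wrote every FPKM value with a count of 0 as 0.0001, and it was read here as 0. Per the submitters' processing notes, cutadapt, HISAT2 and StringTie were used. Tool versions, the part each tool played, the genome build, the annotation and the strand setting are not given in the sources used here. A further 12 measurement columns, from 6 libraries, were not used. Coordinates are those of the table, and no sequence is shown.

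All genes averaging at least 0.5 FPKM across the libraries, 48492 in number, were fitted together with edgeR 4.0.16 in R 4.3.3 (TMM scaling, trended dispersion, quasi-likelihood test, no block for replicates). The common biological coefficient of variation came to 0.488. The steps were tested on simulated data. Folds against a group with no counts use 3 counts per library. Alternatives used DESeq2 1.42.0, limma 3.58.1 on log2(FPKM + 1) and log2(FPKM + 0.1), other scalings and filters, a replicate block, and each library left out.

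The segment, the function lists and the rules were chosen with earlier results of these data known. The genes named were the lowered members with the largest fall, no overlap between groups, a white mean of at least 2 FPKM and an informative description (up to 12, of which 8 qualified), raised members by the like rule (none qualified), the 5 members with the highest mean, the top member of each function list, the 8 sets of copies with the highest sum, and the lowered genes on both sides of the 20 Mb limit. Identifiers of the table matched none in the supplied reference gene table.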

Additional observations from a re-analysis of the deposited data

How the results depend on the processing

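The segment's 19 lowered and 5 raised genes became 34 and 12 with DESeq2, where 6.24% and 9.46% of all tested genes were called. Without white replicate 1 and purple replicate 3 together they became 33 and 13, where 6.06% and 7.88% of all tested genes were. At an edgeR adjusted p under 0.1 they became 29 and 9, and the share over all tested genes at that threshold is not given here. Counting groups that do not overlap in FPKM, with no model, gave 38 and 13, where 19.9% and 13.3% of all tested genes did. Without the filter on low values 10 were raised, and the share over all genes of that fit is not given here. With 1 library left out, lowered genes ran from 8 to 28 and raised genes from 0 to 7. In those fits the shares of all tested genes ran from 0.724% to 4.97% lowered and from 0.472% to 5.28% raised. The segment's median log2 difference was -0.29, and -0.74 for a segment ending at 15 Mb. Scaling to total counts moved the median of all tested genes from 0.02 to -0.11 and that of the members from -0.29 to -0.41.

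Copies called higher, 1 in all, ran from 0 to 5 with 1 library left out, where 0.472% to 5.28% of all tested genes were. When any unique description was accepted, 1 copy was called lower, where 2.32% of all tested genes were. Function lists had 10 lowered and 1 raised member with DESeq2, against 5 and 0. Deviations of same-numbered libraries from their group means, on the log2(FPKM + 1) scale, had correlations of 0.183, 0.00657 and 0.336. By these deviations, not every library correlated best with its own number. With 3 libraries a group, these correlations cannot decide whether the numbers pair the samples, and the main fit did not pair them. With a replicate block, 14 members were lower and 5 higher, where 2.05% and 3.2% of all tested genes were. For 25 named genes under 15 settings, 18 calls were lost, 21 were gained and no call was reversed. The sign of a difference that was not called could change. For the RGA2 gene TraesCS3D02G041100 the log2 difference was -0.13 in the main fit and 0.37 without white replicate 1. The joint omission, the count of groups that do not overlap and the wider copy rule were chosen after seeing the data.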
